A study of Mus musculus with 6 samples.

Results

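The genes described here are 33 genes of cholesterol and fatty acid metabolism, chosen by their gene names in the table of adult brain counts, in which each of the 33 names was found once among 53801 genes. They comprise 8 genes of the mevalonate steps of cholesterol synthesis, 9 genes of its later sterol steps, 4 genes of SREBP control, 5 genes of fatty acid synthesis, 4 genes of LXR signalling and sterol efflux, and 3 genes of sterol turnover and lysosomal export. RNA sequencing compared 3 Bahd1-KO mice (genotype Bahd1-/-, with both Bahd1 alleles inactivated) with 3 Bahd1-WT mice (Bahd1+/+), all C57BL/6 adults about 70 weeks old, without any treatment. Each library was made from polyadenylated RNA of a single brain hemisphere, and each sample has its own mouse, so that p-values measure the spread between mice. In such bulk tissue, fewer cells of a type and less RNA per cell cannot be told apart. BAHD1 is a chromatin protein linked to gene repression, and the study describes Bahd1-null mice as having low blood cholesterol and little fat tissue.

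The brain makes its own cholesterol, since lipoprotein cholesterol of the blood hardly crosses the blood-brain barrier, and most of this cholesterol lies in myelin. Acetyl-CoA is turned into mevalonate, isoprenoids, squalene, lanosterol and finally cholesterol, and when membrane sterol is low the SCAP protein escorts SREBP transcription factors out of the endoplasmic reticulum so that they can activate the genes of the pathway, while INSIG proteins hold SCAP back. Oxysterols, formed when sterol is plentiful, activate the LXR receptors, which switch on efflux pumps, and in neurons cholesterol leaves the brain mainly as 24-hydroxycholesterol made by CYP46A1.

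The libraries held 42297150 to 93557948 counts. Counts of Bahd1 itself were 1383, 844 and 1099 in the Bahd1-WT libraries and 0, 14 and 1 in the Bahd1-KO libraries, which fits every label. Markers of neurons, astrocytes, oligodendrocytes, microglia and endothelium were present in all 6 libraries. The libraries differed in how the level of a gene depended on its GC content (the share of G and C bases in its longest transcript). Relative to the Bahd1-WT mean, genes with at least 55% GC had a median log2 difference of 0.43, 1.58 and 0.88 in Bahd1-KO replicates 1, 2 and 3, and genes under 45% GC one of -0.17, -0.79 and -0.42. Bahd1-KO replicate 2 thus stood farthest from the Bahd1-WT libraries on both sides. For this reason the calls, and the fold changes of the genes described in full, are also given from a second fit. Its offset per library removes a smooth dependence on GC content and exon length, and is called the GC and length offset below.

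The question was whether these genes differ in level between Bahd1-KO and Bahd1-WT brains. The genes did not differ in the same direction throughout. Mvk, Mvd and Pmvk of the mevalonate steps, the regulators Srebf1, Srebf2 and Scap, fatty acid synthase (Fasn) and both LXR genes (Nr1h2 and Nr1h3) had higher levels in Bahd1-KO brains, by log2 fold changes of 1.13 to 2.77. With the GC and length offset the same 9 genes ran from -0.01 (Srebf2, whose genotypes then overlapped) to 1.42 (Mvk). Most genes of the sterol steps, the desaturases Scd1 and Scd2 and the efflux pump gene Abca1 had log2 fold changes between -0.67 and -0.04, while among the sterol genes Ebp was at 0.24 and Dhcr7 at 0.80. No single difference passed an adjusted p of 0.05 in edgeR's quasi-likelihood test.

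Levels in CPM are counts scaled to library size after TMM normalization, and a log2 fold change is Bahd1-KO over Bahd1-WT. All 33 genes passed the filter on low counts and were among the 23975 genes tested. At an adjusted p under 0.05 in edgeR, 0 of the 33 were called in either direction, where the same call covered 0.00417% of all genes tested upward and 0.00417% downward. At an unadjusted p under 0.05, 13 of the 33 were higher in Bahd1-KO brains, against 19.9% of all genes tested. By the same rule 1 was lower (Abca1), against 12%. In a fit of only the 14676 genes with at least 1 CPM in 3 samples, 27.0% were higher and 13.8% lower. The 13 were Mvk, Mvd, Pmvk, Fdps, Dhcr7, Srebf1, Srebf2, Scap, Fasn, Nr1h2, Nr1h3, Cyp46a1 and Npc2. Their adjusted p from edgeR ranged from 0.0634 to 0.0979, so all 13 were called at an adjusted p under 0.1, a call that covered 14.7% of all genes tested upward and 4.77% downward; 0 of the 33 were called downward there. DESeq2, the tool named by the study, was run here with a normal prior on fold changes, which the study does not mention, and called the same 13 genes at an adjusted p under 0.05, against 17.7% of all genes with an adjusted p upward and 3.54% downward, and called 0 of the 33 downward.

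The spread of the samples gave a like count. For 13 genes of the 33, all Bahd1-KO samples lay above all Bahd1-WT samples, against 20.6% of all genes tested, and these were the same 13 genes. In 4 genes (Hmgcs1, Idi1, Sc5d and Insig1) every Bahd1-KO sample lay below every Bahd1-WT sample, against 19.3% of all genes tested. The median log2 fold change of the 33 was 0.02, beside -0.06 over all genes tested and -0.01 over genes with a mean of at least 1 CPM. Within the Bahd1-KO mice, replicate 2 had the highest level in 13 of the 13 higher genes and replicate 1 the lowest in 12 of the 13. Without Bahd1-KO replicate 2, 12 of the 13 still had an unadjusted p under 0.05 (Fdps did not), beside 15.5% of all genes tested in that fit, and the median log2 fold change of the 13 was 1.13 in place of 1.72. Without that library the log2 fold change was 0.56 for Fdps, 0.73 for Srebf2, 1.09 for Scap and 1.18 for Nr1h3, and those of Mvk, Mvd, Nr1h2 and Cyp46a1 are given with these genes. Without Bahd1-KO replicate 1, all 13 passed an adjusted p of 0.05 in edgeR, beside 19.8% of all genes tested upward in that fit.

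**Figure D1:**
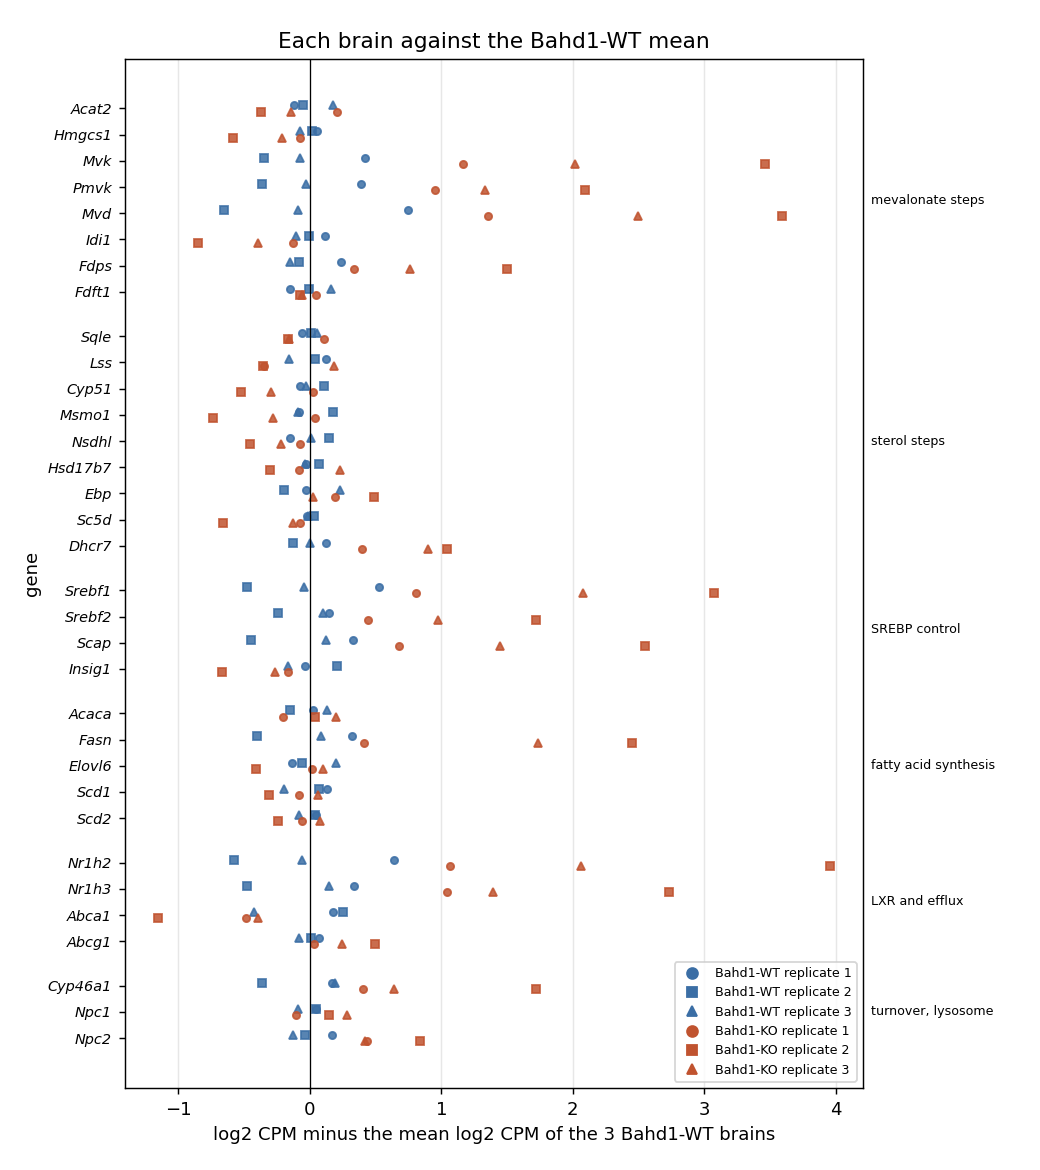
Level of each of the 33 genes in each brain, as log2 CPM minus the mean log2 CPM of the 3 Bahd1-WT brains (horizontal axis), with genes in rows by role; blue symbols are Bahd1-WT, orange symbols Bahd1-KO, and the symbol shape gives the replicate number. In 13 genes all 3 orange symbols lie to the right of all blue ones, and in these the orange square, Bahd1-KO replicate 2, lies farthest right.

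With the GC and length offset, 13 of the 33 were again higher at an unadjusted p under 0.05, against 9.89% of all genes tested, and 1 lower (Abca1), against 11.4%. Of these 13, 11 were shared with the fit without the offset; Cyp46a1 and Srebf2 were no longer called, with log2 fold changes of -0.21 and -0.01, and Hsd17b7 (0.32) and Npc1 (0.41) were called instead. At an adjusted p under 0.1 in edgeR with the offset, 6 of the 33 were higher (Mvk, Mvd, Pmvk, Dhcr7, Srebf1 and Nr1h2), against 3.61% of all genes tested, and 0 were lower, against 2.38%. DESeq2 with the prior and the offset called 9 of the 33 higher at an adjusted p under 0.05, against 7.35% of all genes with an adjusted p, and 0 lower, against 4.64%; the genes it no longer called were Cyp46a1, Fdps, Scap and Srebf2. On CPM after the offset, 13 genes had every Bahd1-KO sample above every Bahd1-WT sample, against 11.7% of all genes tested, and 0 had every sample below, against 14.6%. The median log2 fold change of the 33 with the offset was 0.10, beside -0.06 over all genes tested.

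The higher genes were the GC-rich ones. The 13 genes had a median GC content of 57.9% (range 50.6% to 60.6%), and the other 20 one of 47.3% (41.9% to 52.7%). Across the 33 genes the log2 fold change had a Pearson correlation of 0.88 and a Spearman correlation of 0.87 with GC content, beside a Spearman correlation of 0.74 over the 23940 genes with an annotated transcript. These are correlations across genes of the same 6 libraries, and genes are not independent replicates. With the offset the Spearman correlation was 0.38 over the 33 genes and 0.06 over all genes. At 55% GC and above, 10 of 10 genes were higher at an unadjusted p under 0.05, beside 68.0% of the 4507 genes of that GC class, with a median log2 fold change of 1.80 beside 1.09 for the class. With the offset 8 of the 10 were higher, beside 19.9% of the class, and the medians were 0.66 and -0.03. Below 45% GC, 0 of 6 genes were higher, beside 0.297% of the class, and 0 of 6 were lower, beside 31.5% of the class. With the offset 1 of the 6 was higher, beside 5.04%, and 0 were lower, beside 6.58%. How much of each fold change goes with GC content in these libraries was not tested beyond this offset.

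**Figure D2:**
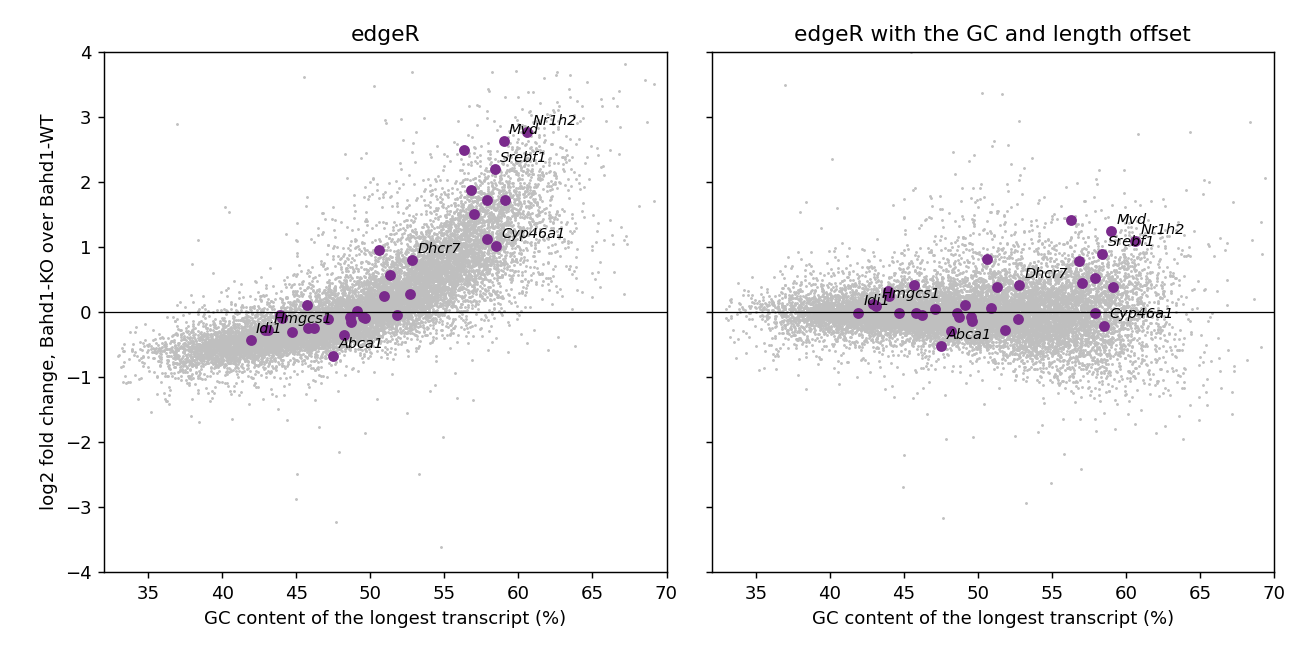
Log2 fold change, Bahd1-KO over Bahd1-WT (vertical axis), against the GC content of the longest transcript in percent (horizontal axis), without the GC and length offset (left) and with it (right); grey points are all genes with a mean of at least 1 CPM and purple points the 33 genes, some named, and genes beyond the axes are not drawn. On the left the purple points climb with GC content (Spearman correlation 0.87), and on the right most lie near 0 while Mvk, Mvd, Nr1h2 and Srebf1 stay at 0.90 or above.

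**Figure D3:**
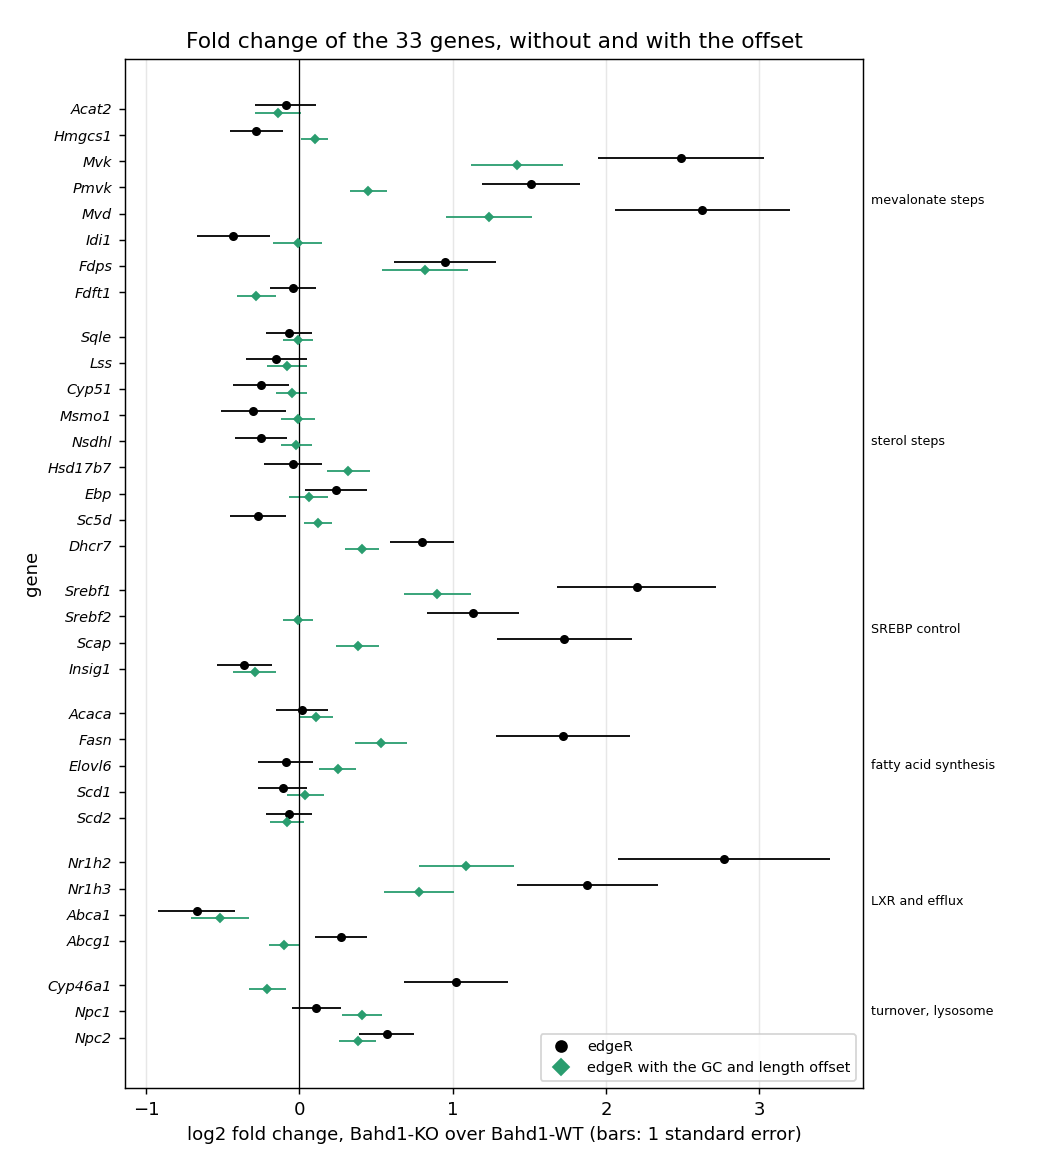
Log2 fold change of each of the 33 genes, Bahd1-KO over Bahd1-WT, from edgeR (black circles) and from edgeR with the GC and length offset (green diamonds), with bars of 1 standard error from 3 mice per genotype. Nr1h2 moves from 2.77 to 1.09 and Srebf2 from 1.13 to -0.01 with the offset, while Fdps (0.95 and 0.82) and Abca1 (-0.67 and -0.52) move little.

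Among the 8 mevalonate genes, 4 were higher at an unadjusted p under 0.05, beside 19.9% of all genes tested, and 0 lower, beside 12%. Of the higher genes, Mvk, Pmvk and Mvd lie in the class of at least 55% GC, of which 68.0% was higher. Mvd (chromosome 8, 122433601 to 122443422, GRCm38), whose enzyme decarboxylates mevalonate diphosphate to isopentenyl diphosphate, was at 2.87, 1.09 and 1.61 CPM in Bahd1-WT replicates 1, 2 and 3 and at 4.39, 20.6 and 9.66 CPM in Bahd1-KO replicates 1, 2 and 3. The genotypes did not overlap, and the Bahd1-KO mice differed more among themselves than the Bahd1-WT mice did. The log2 fold change for Mvd was 2.63 (edgeR adjusted p = 0.0634, standard error 0.57), and 1.24 (edgeR adjusted p = 0.0808, standard error 0.28) with the offset. Mvk (chromosome 5, 114444269 to 114460591), mevalonate kinase, was at 2.73, 1.60 and 1.94 CPM in Bahd1-WT and 4.57, 22.4 and 8.26 CPM in Bahd1-KO brains. Its log2 fold change was 2.49 (standard error 0.54, edgeR adjusted p = 0.0634) and 1.42 (standard error 0.30, edgeR adjusted p = 0.0783) with the offset, the highest of the 33 genes in that fit. Without Bahd1-KO replicate 2 the log2 fold change of Mvk was 1.62 and that of Mvd 1.92. Pmvk, phosphomevalonate kinase, which acts between these 2 enzymes, had a log2 fold change of 1.51 (0.45 with the offset).

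Of the other mevalonate genes, Fdps was also higher and the rest were not. Hmgcs1 (chromosome 13, 119690379 to 119708260), the cytosolic HMG-CoA synthase at the start of the pathway, was at 367, 357 and 336 CPM in Bahd1-WT and 335, 235 and 304 CPM in Bahd1-KO brains. All 3 Bahd1-KO values lay below the Bahd1-WT values, replicate 1 by a narrow margin, and the log2 fold change of -0.28 did not pass the test (standard error 0.17, edgeR adjusted p = 0.274); with the offset it was 0.10. Idi1, the isomerase that interconverts the isoprenoid building blocks, was at 5.49, 5.04 and 4.72 CPM in Bahd1-WT and 4.64, 2.81 and 3.85 CPM in Bahd1-KO brains. Here too the genotypes did not overlap, with a log2 fold change of -0.43 (edgeR adjusted p = 0.236) that was -0.01 with the offset. Fdps, farnesyl diphosphate synthase, was at 1.09, 0.875 and 0.832 CPM in Bahd1-WT and 1.17, 2.61 and 1.57 CPM in Bahd1-KO brains, and the lowest Bahd1-KO value was close to the highest Bahd1-WT value. Its log2 fold change was 0.95 (edgeR adjusted p = 0.0979) and 0.82 with the offset. Acat2 (-0.09), the acetyl-CoA acetyltransferase of the cytosol, and Fdft1 (-0.04), squalene synthase, had log2 fold changes near 0. With the offset these were -0.14 for Acat2 and -0.28 for Fdft1 (unadjusted p = 0.055, edgeR adjusted p = 0.245).

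Several of these levels are uncertain because other genes share their sequence. Of the 50-base windows of their exons, 45.9% in Acat2 also occur in Acat3, 21.3% in Idi1 and 11.7% in Fdps occur in other annotated genes, and 10.9% in Fdft1 occur in Gm6781. In Fdps 26.7% of the exon bases also lie in Gm43738 on the same strand, and Fdps, at 0.222 FPKM, had the lowest level of the 33 genes in Bahd1-WT brains. FPKM is CPM per kilobase of exon, the scale used here to compare levels between genes. Exons of other genes on the opposite strand cover 18.3% of the exon bases of Fdft1 (Ctsb), 13.2% of those of Scap and 12.1% of those of Hmgcs1. The study states that strand was used in counting, while the sources differ on whether the library kit kept it, so the levels of these 3 genes may hold reads of their partners. Among the other genes, Acaca shares 52.6% of its windows with Gm5182, and Scd1 and Scd2 share 4.66% and 4.01% with each other or with near copies such as Scd3 and Scd4.

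The promoters of 3 of these genes are shown because they stand next to each other in the pathway and had different fold changes. SREBP proteins bind sterol regulatory elements, often beside CCAAT boxes bound by NF-Y. Each window holds 250 bases before and 50 bases after a RefSeq start site of GRCm38.p6, 5′ to 3′ on the strand of the gene, and capitals mark TCACNCCAC (a sterol regulatory element) or CCAAT on either strand. The Hmgcs1 window is chr13:119690101-119690400 (plus strand), the Mvk window chr5:114444019-114444318 (plus strand) and the Mvd window chr8:122443373-122443672 (minus strand).
Hmgcs1: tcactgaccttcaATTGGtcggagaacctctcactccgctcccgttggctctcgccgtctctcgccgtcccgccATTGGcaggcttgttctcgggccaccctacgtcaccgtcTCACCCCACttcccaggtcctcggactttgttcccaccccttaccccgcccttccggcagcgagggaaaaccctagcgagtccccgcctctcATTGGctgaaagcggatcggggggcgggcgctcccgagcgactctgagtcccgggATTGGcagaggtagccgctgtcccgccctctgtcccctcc
Mvk: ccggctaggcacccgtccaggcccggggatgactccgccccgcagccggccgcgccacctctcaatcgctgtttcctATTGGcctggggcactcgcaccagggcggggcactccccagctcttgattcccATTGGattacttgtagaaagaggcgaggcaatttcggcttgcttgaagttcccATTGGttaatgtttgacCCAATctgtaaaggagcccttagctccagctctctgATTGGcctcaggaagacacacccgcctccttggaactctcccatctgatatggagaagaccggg
Mvd: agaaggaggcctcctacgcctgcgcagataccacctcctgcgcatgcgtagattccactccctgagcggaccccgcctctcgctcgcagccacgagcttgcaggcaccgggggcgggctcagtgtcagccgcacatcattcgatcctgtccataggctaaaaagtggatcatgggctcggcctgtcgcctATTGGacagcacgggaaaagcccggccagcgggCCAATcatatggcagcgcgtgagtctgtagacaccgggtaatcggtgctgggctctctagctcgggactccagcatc
The Hmgcs1 window held 1 TCACNCCAC match, which starts at position -137 from the start site, and 4 CCAAT boxes, while the Mvk and Mvd windows held 5 and 2 CCAAT boxes and no TCACNCCAC. RefSeq windows were used for 26 of the 33 genes, and windows on the chromosome of Npc1 were not used for the 33. TCACNCCAC occurred in 1 of the 26, beside 1.44% of all genes with a window. CCAAT occurred in 19 of the 26 beside 41.1% of all genes, and GGGCGG, the GC box, in 20 of the 26 beside 38.2%, both strands counted. Such matches describe the letters only, and the windows had a median GC content of 62.7%.

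Among the 9 sterol genes, which carry squalene to cholesterol, 1 was higher at an unadjusted p under 0.05 (19.9% of all genes) and 0 were lower (12%). Dhcr7, whose reductase makes cholesterol in the last step of the Kandutsch-Russell branch, was the exception, at 16.9, 14.2 and 15.5 CPM in Bahd1-WT and 20.4, 31.9 and 28.9 CPM in Bahd1-KO brains. The genotypes did not overlap, and Bahd1-KO replicates 2 and 3 were close to each other. Its log2 fold change was 0.80 (standard error 0.21, edgeR adjusted p = 0.0642) and 0.41 (standard error 0.11, edgeR adjusted p = 0.0920) with the offset, and it had the lowest level of the sterol genes in Bahd1-WT brains, at 2.67 ± 0.23 FPKM (SD, n = 3). Msmo1, a sterol C4-demethylating oxidase, had the lowest log2 fold change of the group, at 133, 159 and 132 CPM in Bahd1-WT and 145, 84.5 and 116 CPM in Bahd1-KO brains. Bahd1-KO replicate 1 lay inside the Bahd1-WT range and the other two below it, and the log2 fold change of -0.30 (edgeR adjusted p = 0.345) was -0.01 with the offset. Sc5d, lathosterol oxidase, had the highest level of the group in Bahd1-WT brains, at 27.1 ± 0.49 FPKM (SD, n = 3), which did not differ beyond the spread from Cyp51, lanosterol demethylase, at 26.5 ± 1.8 FPKM. Sc5d was at 130, 135 and 131 CPM in Bahd1-WT and 125, 83.5 and 121 CPM in Bahd1-KO brains, a difference made mostly by Bahd1-KO replicate 2, with a log2 fold change of -0.27 (edgeR adjusted p = 0.326) that was 0.12 with the offset.

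The other sterol genes had overlapping genotypes. Log2 fold changes were -0.25 for Cyp51, -0.25 for Nsdhl, a sterol dehydrogenase, and -0.15 for Lss, lanosterol synthase. They were -0.07 for Sqle, squalene epoxidase, -0.04 for Hsd17b7, a sterol ketoreductase, and 0.24 for Ebp, a sterol isomerase. With the offset these 6 genes were between -0.08 and 0.32. Summed over the 17 genes of both synthesis groups, the level was 1100, 1140 and 1100 CPM in Bahd1-WT and 1120, 917 and 1040 CPM in Bahd1-KO brains, so the genotypes overlapped. After the offset the sums were 1040, 1050 and 1030 CPM in Bahd1-WT and 1080, 1020 and 1100 CPM in Bahd1-KO brains. The sum is set mostly by abundant genes such as Hmgcs1, and the higher genes Mvk and Mvd had means of only 2.09 ± 0.58 and 1.86 ± 0.92 CPM in Bahd1-WT brains (SD, n = 3).

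**Figure D4:**
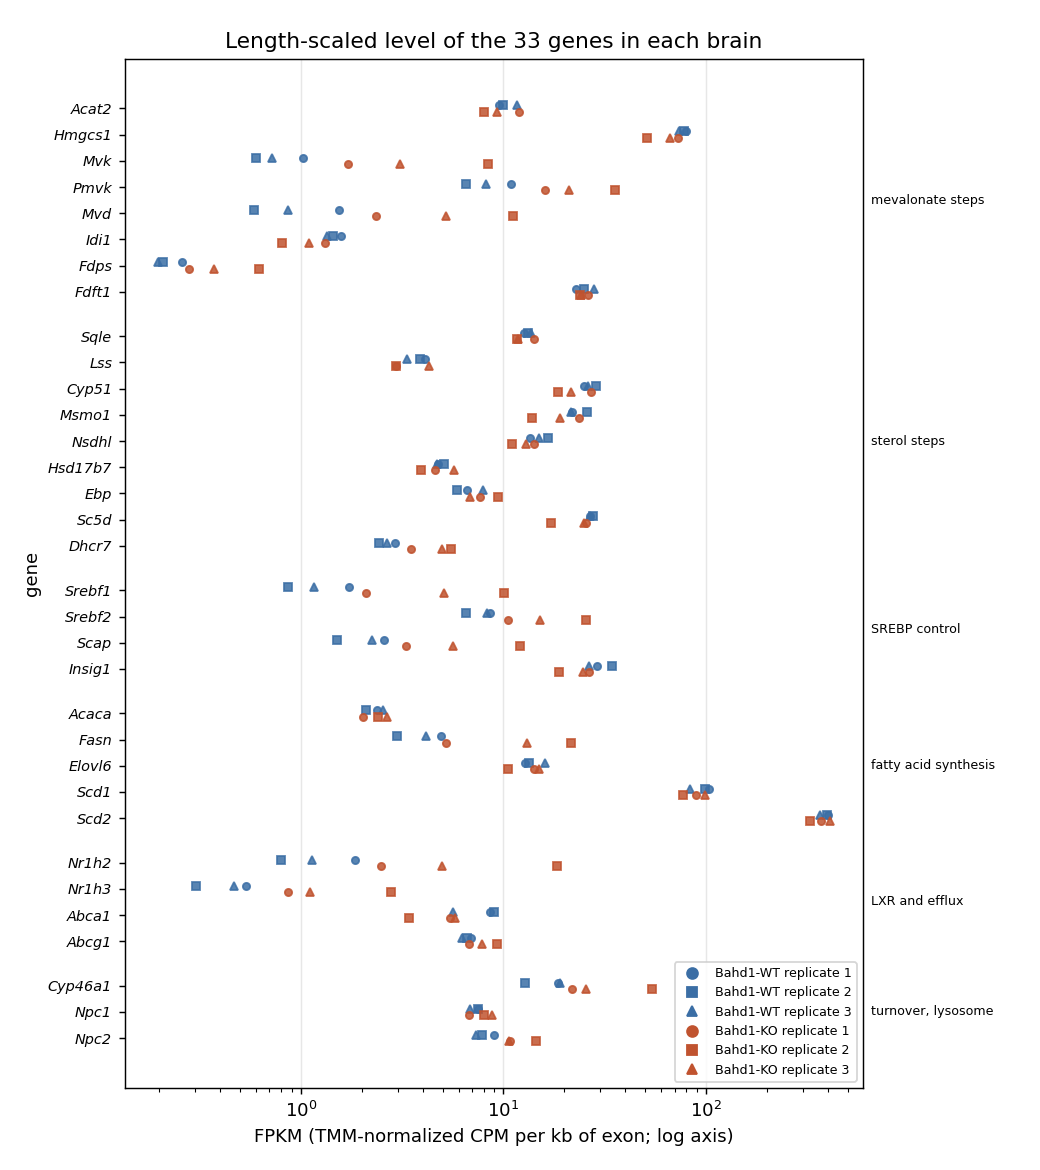
Level of each of the 33 genes in each brain in FPKM (TMM-normalized CPM per kilobase of exon, log axis), with genes in rows by role; blue symbols are Bahd1-WT, orange symbols Bahd1-KO, and the symbol shape gives the replicate number. Levels in Bahd1-WT brains run from a mean of 0.222 FPKM for Fdps to 385 FPKM for Scd2, and the genes with the widest gap between blue and orange symbols, such as Mvk, Mvd, Srebf1 and Nr1h2, are among the low ones.

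Of the 4 genes of SREBP control, 3 were higher at an unadjusted p under 0.05 (19.9% of all genes) and 0 were lower (12%). These 3 lie in the class of at least 55% GC, of which 68.0% was higher. Srebf1 (chromosome 11, 60199089 to 60222581), which encodes the SREBP-1 factors of fatty acid synthesis, was at 9.74, 4.84 and 6.53 CPM in Bahd1-WT and 11.8, 56.8 and 28.5 CPM in Bahd1-KO brains. Bahd1-KO replicate 1 was just above the highest Bahd1-WT mouse and the other two well above. The log2 fold change was 2.20 (standard error 0.52, edgeR adjusted p = 0.0634). With the offset it was 0.90 (standard error 0.22, edgeR adjusted p = 0.0848). With a library left out, and without the offset, it ran from 1.53 to 2.63. Srebf2, whose product drives the cholesterol genes, had a log2 fold change of 1.13 (edgeR adjusted p = 0.0645) and -0.01 (standard error 0.10) with the offset. Scap, the sterol-sensing escort of both factors, had 1.73 (edgeR adjusted p = 0.0634) and 0.38 (edgeR adjusted p = 0.155) with the offset. The ratio of Srebf1 to Srebf2 per length was 0.202, 0.131 and 0.140 in Bahd1-WT and 0.198, 0.395 and 0.332 in Bahd1-KO brains, and Bahd1-KO replicate 1 was at the level of Bahd1-WT replicate 1. On levels after the offset it was 0.207, 0.134 and 0.143 in Bahd1-WT and 0.194, 0.375 and 0.335 in Bahd1-KO brains, again with overlap. Both genes are GC-rich, at 58.4% and 57.9%.

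Insig1, which holds SCAP in the endoplasmic reticulum and is itself a known SREBP target, had the highest level and the lowest log2 fold change of this group. It was at 89.6, 106 and 81.8 CPM in Bahd1-WT and 81.8, 57.8 and 76.4 CPM in Bahd1-KO brains. All Bahd1-KO values were at or under the lowest Bahd1-WT value, with Bahd1-KO replicate 1 equal to Bahd1-WT replicate 3 at this rounding. The log2 fold change was -0.36 (standard error 0.18, edgeR adjusted p = 0.206) and -0.29 (standard error 0.14, edgeR adjusted p = 0.253) with the offset. The ratio of Insig1 to Scap per length was 11.2, 22.8 and 11.8 in Bahd1-WT and 8.02, 1.56 and 4.39 in Bahd1-KO brains. On levels after the offset it was 9.06, 12.3 and 7.37 against 6.86, 4.16 and 7.10, lower in all Bahd1-KO mice in both cases, by a narrow margin after the offset. Of 8 such ratios computed between genes of a group, this was the only one whose genotypes stayed apart after the offset. Among all single genes tested, 11.7% had every Bahd1-KO sample above and 14.6% every one below after the offset. No such share was worked out for ratios of other genes.

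In fatty acid synthesis, 1 of 5 genes was higher at an unadjusted p under 0.05, beside 19.9% of all genes, and 0 were lower (12%). Fasn (chromosome 11, 120805846 to 120824547), the synthase that builds palmitate, was at 53.8, 32.5 and 45.5 CPM in Bahd1-WT and 57.1, 235 and 143 CPM in Bahd1-KO brains. Bahd1-KO replicate 1 was within a few CPM of Bahd1-WT replicate 1, and the other Bahd1-KO mice were far above. Fasn lies in the class of at least 55% GC, of which 68.0% was higher. The log2 fold change was 1.72 (standard error 0.44, edgeR adjusted p = 0.0638), and 0.53 (standard error 0.17, edgeR adjusted p = 0.117) with the offset, where the genotypes overlapped. Acaca, the acetyl-CoA carboxylase that supplies malonyl-CoA to FASN, had the lowest length-scaled level of the group and was at 40.4, 35.9 and 43.5 CPM in Bahd1-WT and 34.5, 41.0 and 45.6 CPM in Bahd1-KO brains. Its genotypes overlapped fully, with log2 fold changes of 0.02 (standard error 0.17) without the offset and 0.11 with it.

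Scd2, the main stearoyl-CoA desaturase of the brain, had the highest level of all 33 genes, at 385 ± 19 FPKM in Bahd1-WT and 367 ± 41 FPKM in Bahd1-KO brains (SD, n = 3). It was at 2170, 2160 and 1990 CPM in Bahd1-WT and 2020, 1780 and 2220 CPM in Bahd1-KO brains, so the genotypes overlapped (log2 fold change -0.07, standard error 0.15, and -0.08 with the offset). Scd1, another desaturase, had the lowest log2 fold change of the group, at 506, 485 and 405 CPM in Bahd1-WT and 437, 374 and 483 CPM in Bahd1-KO brains (log2 fold change -0.11, standard error 0.16, edgeR adjusted p = 0.668, and 0.04 with the offset). The ratio of Scd2 to Scd1 per length was 3.85, 3.98 and 4.40 in Bahd1-WT and 4.14, 4.25 and 4.12 in Bahd1-KO brains, 4.07 ± 0.29 and 4.17 ± 0.072 (SD, n = 3), and the genotypes overlapped with and without the offset. The ratio of Scd1 to Fasn per length was 21.0, 33.4 and 19.9 in Bahd1-WT and 17.1, 3.56 and 7.58 in Bahd1-KO brains, without overlap. On levels after the offset this ratio was 17.2, 18.5 and 12.9 in Bahd1-WT and 14.8, 9.02 and 11.8 in Bahd1-KO brains, and the genotypes overlapped. Elovl6, the elongase of C16 fatty acids, had a log2 fold change of -0.09, and of 0.25 with the offset.

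Of the 4 genes of LXR signalling and efflux, 2 were higher at an unadjusted p under 0.05 (19.9% of all genes) and 1 was lower (12%). Nr1h2 (chromosome 7, 44549616 to 44553951), which encodes LXR beta, had the highest log2 fold change of the 33 genes, and was at 6.23, 2.67 and 3.82 CPM in Bahd1-WT and 8.34, 61.8 and 16.7 CPM in Bahd1-KO brains. Bahd1-KO replicate 2 was far above the other Bahd1-KO mice, and replicate 1 was close to Bahd1-WT replicate 1. The log2 fold change was 2.77 (standard error 0.69, edgeR adjusted p = 0.0634), 1.57 without Bahd1-KO replicate 2, and 1.09 (standard error 0.31, edgeR adjusted p = 0.0971) with the offset. At 60.6%, Nr1h2 had the highest GC content of the 33 genes. Both LXR genes lie in the class of at least 55% GC, of which 68.0% was higher. Nr1h3, which encodes LXR alpha, had the lowest level of the group and was at 1.34, 0.761 and 1.17 CPM in Bahd1-WT and 2.18, 7.05 and 2.78 CPM in Bahd1-KO brains. Its genotypes did not overlap, with a log2 fold change of 1.88 (standard error 0.46, edgeR adjusted p = 0.0634) and of 0.78 (standard error 0.23, edgeR adjusted p = 0.107) with the offset.

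Abca1 (chromosome 4, 53030787 to 53159895), the pump that loads cholesterol onto apolipoproteins and a known LXR target, had the lowest log2 fold change of the 33 genes. It was at 88.7, 93.3 and 58.4 CPM in Bahd1-WT and 56.1, 35.3 and 59.8 CPM in Bahd1-KO brains. Bahd1-WT replicate 3 lay with Bahd1-KO replicates 1 and 3, so the genotypes overlapped. The fold change on the log2 scale was -0.67 (edgeR unadjusted p = 0.0275 and adjusted p = 0.117, standard error 0.25) and -0.52 (edgeR adjusted p = 0.165, standard error 0.19) with the offset. The unadjusted call was lost without Bahd1-WT replicate 1 or without Bahd1-WT replicate 2. Abcg1, the partner pump that exports cholesterol to formed lipoproteins, was close between genotypes, with a log2 fold change of 0.27 (edgeR adjusted p = 0.290) and of -0.10 with the offset. The ratio of Abca1 to Abcg1 per length was 1.24, 1.36 and 0.906 in Bahd1-WT and 0.805, 0.367 and 0.741 in Bahd1-KO brains, without overlap. On levels after the offset it was 1.10, 1.05 and 0.768 in Bahd1-WT and 0.806, 0.552 and 0.846 in Bahd1-KO brains, and the genotypes overlapped.

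Of the 3 genes of turnover and lysosomal export, 2 were higher at an unadjusted p under 0.05 (19.9% of all genes) and 0 were lower (12%). Cyp46a1, the neuronal cholesterol 24-hydroxylase, was at 60.9, 42.2 and 62.0 CPM in Bahd1-WT and 71.9, 179 and 84.3 CPM in Bahd1-KO brains. The genotypes did not overlap, and Bahd1-KO replicate 2 was far above the others. Cyp46a1 lies in the class of at least 55% GC, of which 68.0% was higher. The log2 fold change was 1.02 (standard error 0.34, edgeR adjusted p = 0.0901), 0.51 without Bahd1-KO replicate 2, and -0.21 (standard error 0.12, edgeR adjusted p = 0.333) with the offset. Npc1, the membrane protein that moves cholesterol out of lysosomes, was at 84.7, 84.6 and 77.3 CPM in Bahd1-WT and 76.2, 90.9 and 99.7 CPM in Bahd1-KO brains, with overlap. Its log2 fold change was 0.11 (standard error 0.16) without the offset and 0.41 (standard error 0.13, unadjusted p = 0.0114, adjusted p = 0.122 from edgeR) with it. Npc2, which hands cholesterol to NPC1, had a log2 fold change of 0.57 (edgeR adjusted p = 0.0793) and of 0.38 (edgeR adjusted p = 0.117) with the offset.

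The spread between mice was larger in Bahd1-KO brains, as for genes in general. Over the 33 genes the median coefficient of variation of CPM was 11.1% among the Bahd1-WT and 20.7% among the Bahd1-KO mice, beside 10.3% and 22.2% over all genes with a mean of at least 1 CPM. Bahd1-KO replicate 2 had the highest level of the 6 mice in 15 of the 33 genes and the lowest in another 15.

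Other genes of sterol and fatty acid metabolism were taken from a list of 84 genes that was not drawn up by fold change, of which 83 were found in the table. At an unadjusted p under 0.05, 27 of the 83 had higher levels in Bahd1-KO brains and 9 lower ones, beside the 19.9% and 12% of all genes given above, and their median log2 fold change was 0.11. At an adjusted p under 0.1, 22 were higher (14.7% of all genes) and 1 lower (4.77%), and at an adjusted p under 0.05 in edgeR 0 were called, while DESeq2 with the prior called 21 (21.3% of all genes with an adjusted p). With the offset 18 were higher (9.89% of all genes) and 3 lower (11.4%) at an unadjusted p under 0.05. Among those with a mean of at least 1 CPM, the highest log2 fold changes were those of Ppard, a nuclear receptor for fatty acids (2.65, and 2.28 with the offset), of Apoe, the main apolipoprotein of the brain (2.18, and 0.67 with the offset), and of Abca7, a lipid pump (1.88, and 0.54 with the offset). Ppard was at 4.51, 2.58 and 2.07 CPM in Bahd1-WT and 6.32, 35.2 and 15.8 CPM in Bahd1-KO brains, without overlap. The lowest were those of Gramd1c, a sterol carrier (-0.68, and -0.28 with the offset), Cyp7b1, the oxysterol 7-alpha-hydroxylase (-0.63, and -0.27 with the offset), and Mbtps2, the site-2 protease that releases SREBP (-0.60, and -0.07 with the offset). Without Bahd1-KO replicate 2 the log2 fold change was 1.87 for Ppard, 1.25 for Apoe, 1.30 for Abca7, -0.46 for Gramd1c, -0.51 for Cyp7b1 and -0.39 for Mbtps2, and Gramd1c was no longer called at an unadjusted p under 0.05.

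Markers of the cell types that make and use most brain sterol were read beside these genes, and their calls stand beside the 19.9% of all genes called higher and the 12% called lower, or with the offset beside 9.89% and 11.4%. Of 12 oligodendrocyte markers 4 were higher and 1 lower at an unadjusted p under 0.05, and their summed level was 5590 to 6390 CPM in Bahd1-WT and 5770 to 8720 CPM in Bahd1-KO brains; with the offset 6 were higher and 2 lower. Of 9 astrocyte markers 4 were higher and 1 lower, with sums of 6470 to 7050 and 5550 to 6610 CPM, and 4 higher and 0 lower with the offset. Of 10 neuronal markers 3 were higher and 1 lower, with sums of 8570 to 9730 and 8050 to 9460 CPM, and 2 higher and 2 lower with the offset. Of 8 microglial markers 3 were higher and 0 lower, with sums of 332 to 378 and 294 to 352 CPM, and 0 higher and 2 lower with the offset. Of 7 endothelial markers 1 was higher and 0 lower, with sums of 246 to 269 and 253 to 293 CPM, and 3 higher and 0 lower with the offset. Of 6 adipocyte markers, Plin1, Cidec and Retn passed the filter and summed to at most 0.432 CPM in any brain, and Adipoq, Lep and Cfd did not pass it, with at most 3 counts in any library and 0 in at least 1. The 7 markers of lung epithelium, which a brain should lack, summed to 2.5 to 111 CPM in Bahd1-WT (highest in replicate 1) and to 0.575 to 1.84 CPM in Bahd1-KO brains, and 6 of the 7 were lower (7 with the offset). The part of any of these differences in the levels of the 33 genes was not tested.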

How the data were processed

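RNA-seq read counts per gene from a brain hemisphere of 3 Bahd1-WT and 3 Bahd1-KO mice were used, with samples grouped by their labels. The authors trimmed reads with Cutadapt 1.11, aligned them to GRCm38 with STAR 2.5.0a (a supplement also names Tophat2), counted reads on Ensembl exons with featureCounts 1.4.6-p3 and deposited whole counts without normalization. The table held 0 columns of other samples.

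Genes with at least 10 counts in sum were kept (23975 of 53801). They were tested with edgeR 4.0.16 in R 4.3.3 (TMM normalization, quasi-likelihood test, genotype as the only factor, Benjamini-Hochberg adjustment over all genes tested). DESeq2 1.42.0 (Wald test, with the normal prior or without it) was an alternative. The GC and length offset was fitted per library on 13283 genes as natural splines of log2 CPM. The GC content of the longest GENCODE M21 transcript had 5 degrees of freedom, and the log length of the union of exons had 3. FPKM used the same union of exons. Promoter windows came from RefSeq (GRCm38.p6). The scripts were tested on simulated counts.

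The 33 genes, the other lists and the alternatives were chosen with earlier results of these data known, and DESeq2 with both prior and offset was added after the data were seen. All 33 genes are named. In each role group, values in all 6 samples are given for the genes with the highest and lowest log2 fold change and the highest and lowest FPKM in Bahd1-WT, and Mvk was added because its promoter is shown. From the other pathway genes, the 3 highest and 3 lowest fold changes at a mean of at least 1 CPM are named, and Ppard was given by sample after its values were seen. Depth per sample was 42297150 to 93557948 counts. Proteins, embryonic brains and other assays were not analysed here.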

Additional observations from a re-analysis of the deposited data

How the results depend on the processing

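The number of the 33 genes with an adjusted p under 0.05 was 0 in edgeR, 10 with total counts as library sizes (beside 9.40% of all genes called in that fit), 11 with every gene of at least 1 count kept (beside 11%), 13 in DESeq2 with or without the prior (beside 21.3% in each) and 9 in DESeq2 with the prior and the offset (beside 12%). It was 0 to 13 when each library was left out, and the 13 came without Bahd1-KO replicate 1 (beside 30.0%). For the other 83 pathway genes the same count was 0 in edgeR, 12 with total counts, 19 without the filter, 21 in DESeq2 with or without the prior, 11 in DESeq2 with the prior and the offset, and 0 to 39 with a library left out, the 39 again without Bahd1-KO replicate 1. The number lower at an unadjusted p under 0.05 was 1, and 2 with upper-quartile factors. With a library left out it was 0 (without Bahd1-WT replicate 1 or 2) to 5 (without Bahd1-KO replicate 1, where 18.6% of all genes were lower), when Cyp51, Idi1, Insig1 and Msmo1 joined Abca1. The number higher was 13 (19.9% of all genes), and 11 to 14 with a library left out (13.5% to 24.7% of all genes in those fits), where Fdps was lost without Bahd1-KO replicate 2, Cyp46a1 and Fdps without Bahd1-WT replicate 2, Fdps and Npc2 without Bahd1-WT replicate 3, and Abcg1 was gained without Bahd1-KO replicate 1. The median log2 fold change was 0.02, -0.13 with upper-quartile factors, 0.12 in DESeq2 with the prior and the offset, and -0.01 to 0.14 with a library left out. The cause of these shifts was not tested.

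The sign of the log2 fold change turned in some fits. With upper-quartile factors the log2 fold changes were -0.13 for Acaca and -0.03 for Npc1. With total counts they were 0.04 for Fdft1 and for Hsd17b7 and 0.01 for Sqle and for Scd2. With the offset they were 0.10 for Hmgcs1, 0.32 for Hsd17b7, 0.12 for Sc5d, -0.01 for Srebf2, 0.25 for Elovl6, 0.04 for Scd1, -0.10 for Abcg1 and -0.21 for Cyp46a1, and with the replicate block added these values were the same but for Hsd17b7 (0.30). In DESeq2 with the prior and the offset they were 0.12 for Hmgcs1, 0.01 for Idi1, 0.01 for Sqle, 0.01 for Msmo1, 0.00 for Nsdhl, 0.32 for Hsd17b7, 0.14 for Sc5d, 0.26 for Elovl6, 0.06 for Scd1, -0.08 for Abcg1 and -0.18 for Cyp46a1. With a library left out, the log2 fold change ran from -0.23 to 0.03 for Acat2, -0.11 to 0.04 for Fdft1, -0.18 to 0.08 for Hsd17b7, -0.07 to 0.14 for Acaca, -0.18 to 0.05 for Elovl6 and -0.14 to 0.01 for Scd2.

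The labels give replicate numbers but name no pairing of the mice. The deviations of same-numbered samples from their group means had correlations of -0.644, -0.656 and -0.144. Some samples correlated better with another number (0.629 and 0.619 at most). Because the libraries also differ in GC trend, these correlations cannot settle whether the mice were paired. With the replicate block the same 13 genes were higher at an unadjusted p under 0.05 (15.1% of all genes in that fit) and 0 passed an adjusted p of 0.05. Limits are the 3 mice per genotype, the GC trend of the libraries and the shared sequence of several genes. At this depth all 33 genes were detected in each brain.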
